A study of Homo sapiens with 8 samples.

Results

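SOX4, SOX9, SOX11, SOX12 and SOX13 are 5 members of the SOX family of transcription factors, taken here by symbol from the 23686 genes listed in each library. They were chosen with the large rise of SOX4 in GPX1-depleted MDA-MB-231 cells already known. Of the 5, 4 passed the filter on low counts and were tested among 14249 genes, and SOX11 did not pass. Gene expression was read by RNA sequencing in Hs578T and MDA-MB-231, established human lines of triple-negative breast cancer (which lacks the hormone receptors and HER2 amplification) that are labelled as epithelial. Control cells of each line were set against cells depleted of GPX1, an antioxidant enzyme that uses glutathione to remove hydrogen peroxide, in 4 groups of 2 libraries, 8 libraries in all. Titles of the depleted samples name an siRNA against GPX1, hence siGPX1 below, although their genotype label calls them knockouts. No other allele or agent is given for any group, the labels do not state which control was used or how many siRNAs, and each line derives from a single tumour. The replicates are not said to be separate cultures, so p-values cover the spread among these libraries alone, and that spread may be technical.

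SOX proteins bind DNA through an HMG box related to that of the sex-determining factor SRY and bend the helix, and most act together with partner transcription factors. They fall into lettered groups by the sequence of the box. SOX4, SOX11 and SOX12 are the SoxC group, single-exon genes of embryonic progenitors, and SOX4 is a factor of the response to transforming growth factor beta (TGF-β) in mammary epithelial cells and is often raised in breast cancer. SOX9 belongs to the SoxE group, drives cartilage formation and marks luminal progenitors and stem-like cells in the mammary gland. SOX13 belongs to the SoxD group, whose proteins lack a transactivation domain of their own and which also holds SOX5 and SOX6, the partners of SOX9 in cartilage.

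The promoters of the SoxC genes SOX4 and SOX12 are printed because these genes rose together in Hs578T and had higher libraries after depletion in both lines. Each runs from 250 bases before to 50 after the start of the gene in RefSeq (GRCh38.p14), and capitals mark the CCAAT box, searched as CCAAT and, on the other strand, ATTGG.
SOX4, chr6:21593501-21593800, plus strand: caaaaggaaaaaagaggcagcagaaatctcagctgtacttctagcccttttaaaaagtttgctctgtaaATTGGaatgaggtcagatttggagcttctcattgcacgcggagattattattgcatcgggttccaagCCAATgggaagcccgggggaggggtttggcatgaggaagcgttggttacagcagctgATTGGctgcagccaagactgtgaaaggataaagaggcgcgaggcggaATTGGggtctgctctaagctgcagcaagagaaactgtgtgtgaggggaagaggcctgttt
SOX12, chr20:325302-325601, plus strand: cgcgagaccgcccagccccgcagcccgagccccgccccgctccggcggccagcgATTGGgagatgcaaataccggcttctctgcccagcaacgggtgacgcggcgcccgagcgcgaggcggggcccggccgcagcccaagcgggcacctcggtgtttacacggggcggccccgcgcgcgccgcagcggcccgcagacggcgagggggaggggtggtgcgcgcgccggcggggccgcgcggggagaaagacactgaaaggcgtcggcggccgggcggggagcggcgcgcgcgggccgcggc
The SOX4 promoter held 4 CCAAT boxes and the SOX12 promoter 1, against at least 1 in 35.7% of 27305 promoters of the same length. The GC box, searched as GGGCGG and CCGCCC, was found 4 times in the SOX12 promoter and 0 times in that of SOX4, against 44.6% of promoters with at least 1. Base composition differed in the same direction, with 49.3% G and C in the SOX4 promoter, 80.3% in that of SOX12 and a median of 58.3% over all promoters. The SOX13 promoter (chr1:204072865-204073164, plus strand) had 62.7% G and C, 0 CCAAT boxes and 1 GC box. A TATA box, searched as TATAAA and TTTATA, was in none of these 3 promoters, against 12% of all. The promoters of SOX9 and SOX11 were not analysed here. A match of these letters is a description of the sequence and not of a bound site.

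The libraries held 12905808 to 14216365 estimated counts and detected 15584 to 15817 genes each. GPX1 fell to 4.16% of its control level in Hs578T and to 3.5% in MDA-MB-231. Levels are given as TPM (transcripts scaled to a fixed total and by gene length, so that genes can be compared) and as CPM (counts scaled to a fixed total with TMM library factors), and changes on the log2 scale with a standard error (SE). In Hs578T 28.6% of the tested genes rose and 22.1% fell, in MDA-MB-231 20.7% rose and 21.9% fell, and of the controls 43.0% of genes were higher and 38.6% lower in MDA-MB-231, all at an adjusted p under 0.05. The depletion change itself was higher in MDA-MB-231 than in Hs578T for 6.32% of genes and lower for 10.7% by the same threshold. With so large a share of genes called, a call by itself says little about a SOX gene. With a stricter filter the share of rises among the called genes of MDA-MB-231 went from 48.6 to 58.9% and that in Hs578T from 56.4 to 49.3%, so the excess of rises in Hs578T turned. Both lines held mesenchymal markers of their known phenotype, with 5 of 5 at 1 TPM or more in Hs578T and 4 of 5 in MDA-MB-231. The exception was CDH2, at 0.475 TPM in the MDA-MB-231 controls. Of 9 epithelial markers 3 reached 1 TPM in Hs578T and 4 in MDA-MB-231, and the defining epithelial genes EPCAM and CDH1 stood at 0.11 and 0 TPM in the Hs578T controls and at 32.2 and 0.445 TPM in the MDA-MB-231 controls.

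**Figure D1:**
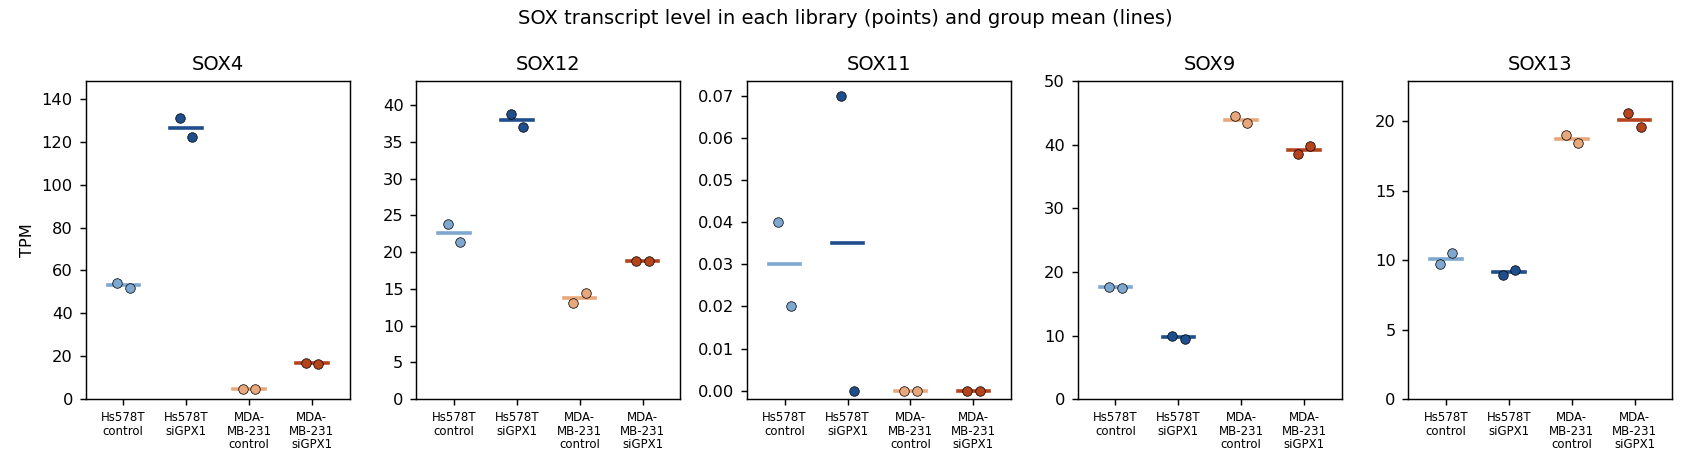
TPM of the 5 SOX genes (vertical axis, a separate linear scale per gene) in each of the 4 groups (horizontal axis), with points for the 2 libraries of a group and a line for their mean. SOX4 runs from 4.59 TPM in an MDA-MB-231 control to 131 TPM in an siGPX1 library of Hs578T, while SOX11 stays at 0.07 TPM or less.

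SOX4 was the most abundant SOX transcript of Hs578T and rose further after GPX1 depletion. The Hs578T controls held 54.3 and 52.0 TPM and the siGPX1 libraries 131 and 122 TPM, from 1453, 1342, 3193 and 3167 counts. The groups did not overlap, and the gap between them was many times the spread within either. Mean CPM went from 107 ± 2.9 (SD, n = 2) to 265 ± 9.71, a log2 change of 1.30 ± 0.04 (SE) or 2.47-fold, with an adjusted p of 2.02e-12 (edgeR's quasi-likelihood test, Benjamini-Hochberg). Of all tested genes, 325 (2.28%) had a larger rise in Hs578T. Among the detected genes, SOX4 moved from the 78.2nd to the 91.1st percentile of TPM in this line. In bulk samples a higher level per cell and a larger share of cells with the transcript cannot be told apart.

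In MDA-MB-231 SOX4 started from a much lower level and its relative rise was larger. The controls held 4.72 and 4.59 TPM and the siGPX1 libraries 16.8 and 16.4 TPM, from 131, 131, 455 and 420 counts. Both depleted libraries were above both controls, and the 2 libraries of each group lay close together. Mean CPM went from 8.56 ± 0.101 to 30.3 ± 0.482 (SD, n = 2), a log2 change of 1.82 ± 0.08 (SE) with a 95% interval of 1.65 to 2.0, or 3.54-fold, and 100 genes (0.702%) rose more. This change is given with no test, since the genes were chosen with it known. Even after depletion the MDA-MB-231 level stayed below that of the Hs578T controls. The change in MDA-MB-231 exceeded that in Hs578T by 0.52 ± 0.10 on the log2 scale, again a description. In control cells, SOX4 was 12.5-fold lower in MDA-MB-231 than in Hs578T (log2 difference -3.65 ± 0.07, SE), given with no test. This comparison shares its control libraries with the depletion comparisons, and a choice on a large rise favours a low MDA-MB-231 control. The order of SOX4 levels was therefore Hs578T siGPX1, Hs578T control, MDA-MB-231 siGPX1 and MDA-MB-231 control, with no overlap between neighbours.

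SOX12, the SoxC gene expressed broadly in the embryo, also rose in Hs578T. Its controls held 23.8 and 21.4 TPM and the siGPX1 libraries 38.8 and 37.1 TPM, with counts of 608, 527, 905 and 917. The groups were well apart although the controls differed from each other more than those of SOX4. The log2 change was 0.80 ± 0.07 (SE) or 1.74-fold (adjusted p = 8.52e-08 by edgeR's quasi-likelihood test), and 882 genes rose more. In MDA-MB-231 the controls held 13.1 and 14.5 TPM and the siGPX1 libraries 18.8 TPM in each, from 347, 395, 487 and 459 counts. Both depleted libraries were again the higher ones, with a log2 change of 0.44 ± 0.08 and no test. Without control replicate 2 of MDA-MB-231, the higher of the pair, the change was 0.57. The change of SOX12 was thus smaller in MDA-MB-231 than in Hs578T, by 0.36 on the log2 scale (-0.36 ± 0.10, SE, no test), the opposite order to SOX4. In the controls SOX12 was 1.8-fold lower in MDA-MB-231 (log2 difference -0.85 ± 0.08, adjusted p = 4.15e-08 by the same test), so the line with more SOX4 also had more SOX12.

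SOX11, the SoxC gene of the developing nervous system, was hardly detected. The Hs578T controls held 2 and 1 counts, the siGPX1 libraries of that line 3 and 0, and all 4 MDA-MB-231 libraries 0. A count of 0 allows up to 3 counts, which is 0.211 to 0.232 CPM in these libraries, for counting error only. Neither a level nor a change of SOX11 could be read at this depth, and no fold is given.

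SOX9 had the opposite pattern to SOX4, being the leading SOX transcript of MDA-MB-231 and falling in Hs578T. The Hs578T controls held 17.7 and 17.5 TPM and the siGPX1 libraries 9.96 and 9.51 TPM, from 381, 364, 196 and 198 counts. Replicates almost coincided and the groups did not overlap. The log2 change was -0.80 ± 0.08 (SE), a level 1.75-fold lower, with an adjusted p of 3.88e-07 by edgeR's quasi-likelihood test. In MDA-MB-231 the controls held 44.6 and 43.4 TPM and the siGPX1 libraries 38.6 and 39.9 TPM, from 995, 995, 842 and 823 counts. The depleted libraries were both lower, but by little, with a log2 change of -0.17 ± 0.06 and no test. That small value ranged from -0.17 to -0.10 when single libraries were left out, with the value nearest 0 found without siGPX1 replicate 1 of MDA-MB-231. The change in MDA-MB-231 lay 0.63 ± 0.10 above that in Hs578T. In the controls SOX9 was 2.27-fold higher in MDA-MB-231 (log2 difference 1.18 ± 0.06, adjusted p = 4.4e-11 by the same test). Its levels fell in the order MDA-MB-231 control, MDA-MB-231 siGPX1, Hs578T control and Hs578T siGPX1, with no overlap.

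SOX13, an autoantigen in type 1 diabetes and the only SoxD gene with an appreciable level here, stayed near its control level. In Hs578T the controls held 9.69 and 10.5 TPM and the siGPX1 libraries 8.93 and 9.28 TPM, from 216, 225, 182 and 200 counts. On the CPM scale the groups overlapped, and the log2 change of -0.09 ± 0.09 (SE) did not pass (adjusted p = 0.467 by edgeR's quasi-likelihood test), with a 95% interval of -0.28 to 0.10. In MDA-MB-231 the controls held 19.0 and 18.4 TPM and the siGPX1 libraries 20.6 and 19.6 TPM, from 440, 436, 466 and 418 counts, a log2 change of 0.10 ± 0.07 with an interval of -0.05 to 0.25 and no test. Without siGPX1 replicate 2 of MDA-MB-231, the lower of its pair, the change was 0.19. The lines themselves differed more than the treatments, with SOX13 1.69-fold higher in the MDA-MB-231 controls (log2 difference 0.76 ± 0.08, adjusted p = 2.2e-07 by the same test).

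Of the 4 tested genes, SOX4 and SOX12 rose, SOX9 fell and SOX13 was not called in Hs578T, where 28.6% of all genes rose and 22.1% fell. Both siGPX1 libraries were above both controls for SOX4 and SOX12 and below them for SOX9, against 40.5 and 31.7% of all tested genes. In MDA-MB-231 the depleted libraries were both higher for SOX4, SOX12 and SOX13 and both lower for SOX9, against 35.7 and 35.8% of all genes, and nothing is read from that count because the choice of genes used this comparison. Between the controls, SOX9 and SOX13 were higher and SOX4 and SOX12 lower in MDA-MB-231. For scale, the middle 90% of tested genes, from the 5th to the 95th percentile, had log2 changes of -0.99 to 0.90 in Hs578T and -0.89 to 0.67 in MDA-MB-231. Among the 4 genes SOX4 alone lay outside that range in Hs578T. It did so in MDA-MB-231 too, but nothing is read from that, since the genes were chosen with this rise known.

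**Figure D2:**
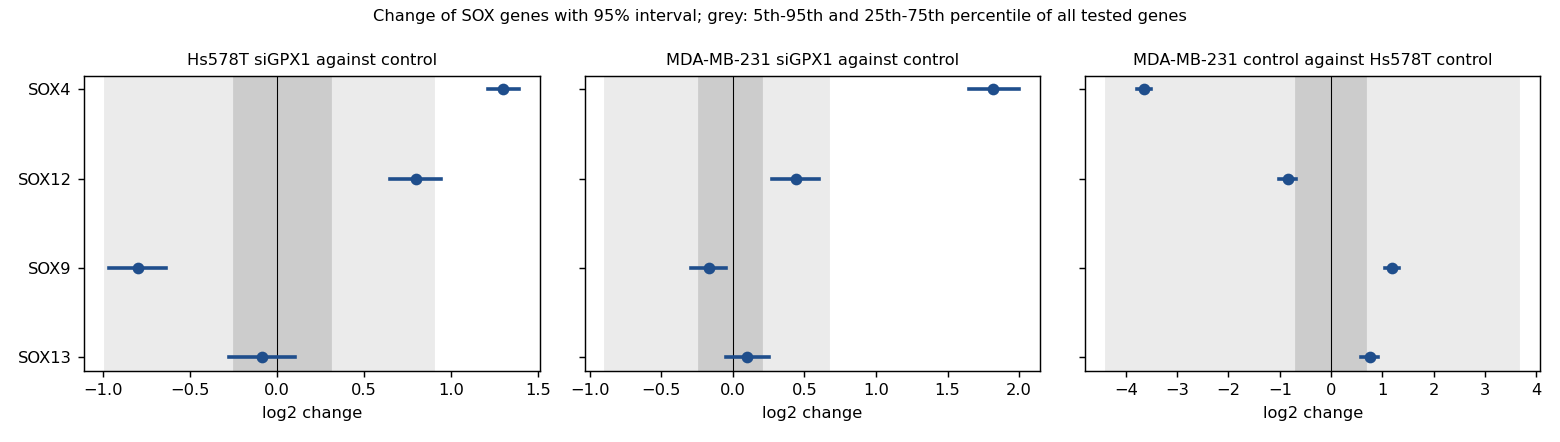
Log2 change (horizontal axis, points, with bars for the 95% interval) of the 4 tested SOX genes in the 3 comparisons, over shaded bands for the 5th to 95th and the 25th to 75th percentile of all tested genes. SOX4 lies right of the wider band after depletion in both lines, at 1.30 and 1.82, the second known when the genes were chosen. SOX13 lies within the narrower band in both lines.

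The balance among the SOX transcripts shifted toward SOX4 in both lines. Summed over the 19 SOX genes listed, the Hs578T controls held 111 and 108 TPM and the siGPX1 libraries 199 and 191 TPM, of which SOX4 made up 48.9 and 48.2% before and 65.5 and 64.2% after depletion. In MDA-MB-231 the sum went from 84.5 TPM in both controls to 101 and 98.6 TPM, and the SOX4 share from 5.59 and 5.43% to 16.7 and 16.6%. SOX9 held 15.9 and 16.2% of the sum in the Hs578T controls against 4.99% in both siGPX1 libraries, and 52.7 and 51.4% against 38.4 and 40.5% in MDA-MB-231. The share of SOX12 hardly moved, from 21.4 and 19.8% to 19.4 and 19.5% in Hs578T and from 15.5 and 17.2% to 18.7 and 19% in MDA-MB-231. Within a library, SOX4 exceeded SOX9 by 3.07 and 2.97 times in the Hs578T controls and by 13.1 and 12.9 times after depletion on the TPM scale. In MDA-MB-231 SOX9 exceeded SOX4 by 9.44 and 9.46 times in the controls and by 2.3 and 2.44 times after depletion, so that SOX9 remained the leading SOX transcript there. These shares and ratios restate the changes of the single genes and carry no test.

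**Figure D3:**
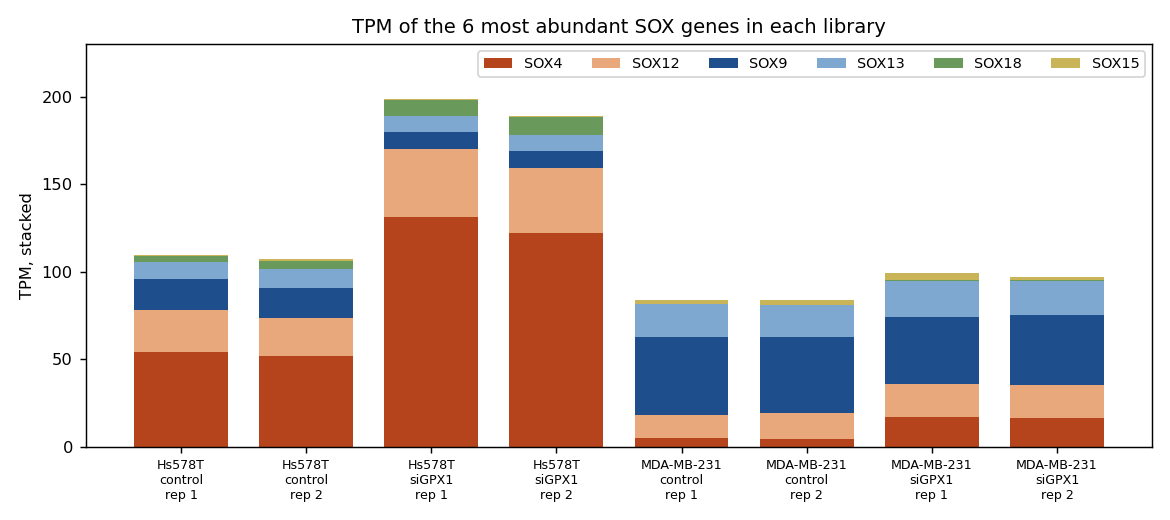
TPM of the 6 SOX genes with a mean of at least 1 TPM in any group (vertical axis, stacked from 0) in each of the 8 libraries (horizontal axis). They are not the 6 most abundant in every library. SOX4 fills 48.2 to 65.5% of the SOX total in Hs578T and 5.43 to 16.7% in MDA-MB-231, where SOX9 is the tallest segment.

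Among the other 14 SOX genes, 4 passed the filter and 1 of these, SOX18, was called after depletion, as a rise in Hs578T. That count is near the 28.6% of all tested genes that rose there, so nothing is read from it. In MDA-MB-231 0 of the 4 rose and 0 fell, against 20.7 and 21.9% of all tested genes. SOX18, the SoxF factor of blood and lymph vessel development, held 32 and 40 counts in the Hs578T controls and 78 and 91 in the siGPX1 libraries, or 2.77 against 7.02 CPM. Its log2 change of 1.34 ± 0.22 (SE) had an adjusted p of 0.000101 by edgeR's quasi-likelihood test. The endothelial marker PECAM1 moved the same way there, from 3.1 to 5.31 TPM, while CDH5 was at 0 counts in all Hs578T libraries and VWF at 0 counts in the controls and 4 in all after depletion. The summed endothelial markers were between 2.81 and 3.4 TPM in the controls and between 5.31 and 5.4 TPM after depletion, and their part in the SOX18 change was not tested. In MDA-MB-231 PECAM1 fell instead (log2 change -0.57 ± 0.20, SE, adjusted p = 0.0327, edgeR), a call lost with DESeq2 and without any single library of that line (-0.55 to -0.50), and the sum went from between 2.08 and 2.11 TPM to between 1.37 and 1.42 TPM. In MDA-MB-231 SOX18 had 2 and 1 control counts against 5 and 4 after depletion and was not called (adjusted p = 0.12 by edgeR's test), although limma on log-scaled TPM did call it. SOX15, the single SoxG gene, held 4 to 8 counts a library in Hs578T and 12 to 27 in MDA-MB-231 and was called in neither. SOX5, which pairs with SOX9 in cartilage, held 2 to 16 counts a library, and SOX7, another SoxF gene, 1 to 17, and neither was called after depletion. SOX10, the SoxE gene of neural crest, melanocytes and Schwann cells, had a single count in all 8 libraries, and SOX2, the SoxB1 gene of pluripotent cells, at most 5 counts.

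The SOX4 messenger carries in its 3′ UTR (the untranslated stretch after the stop codon) a 7-base sequence that had been found in these same data to go with higher expression after depletion. The site is printed with 10 bases on either side, and capitals mark the 7 bases, which are bases 326 to 332 of the 2660 after the stop codon (chromosome 6, GENCODE 29, GRCh38).
SOX4 3′ UTR: aaaaaaagcgACTTCGAgtttgctccc
Of 13103 tested genes with a 3′ UTR of 30 bases or more, 201 (1.53%) had ACTTCGA, and their median log2 change was 0.24 in the first line and 0.21 in the second. Another sequence picked for higher values in the same way was TACTTCG. Those picked for lower values were GGGCATC and GGCATCA, and the 1780 genes that hold either had medians of -0.18 and -0.21. Genes with none of these 4 sequences, 11074 in all, had medians of 0.07 and 0.01. The sequences were chosen on these changes, so the medians are a description and support nothing, and most genes with ACTTCGA changed far less than SOX4. SOX9, SOX11, SOX12 and SOX13 had none of the 4 sequences in 3′ UTRs of 2033, 7338, 3352 and 1609 bases. The part of the match in the rise of SOX4 was not tested.

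**Figure D4:**
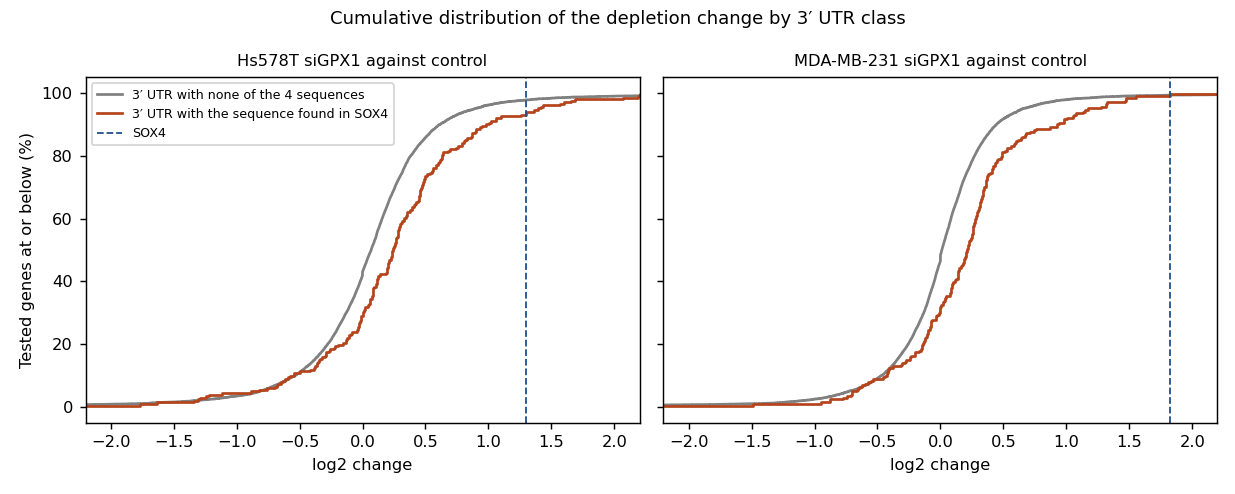
Cumulative share of tested genes (vertical axis, percent) at or below each log2 change (horizontal axis) in Hs578T and MDA-MB-231, for 201 genes whose 3′ UTR holds the 7-base sequence found in SOX4 and 11074 genes with none of the 4 sequences. The curve of the first class lies to the right through its middle, with medians of 0.24 and 0.21 against 0.07 and 0.01, and the dashed line shows SOX4 at 1.30 and 1.82, beyond most genes of either class.

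Of the coding neighbours of SOX4 and SOX12, 1 each was tested, and both changed little. CDKAL1, which modifies a transfer RNA and lies next to SOX4, had a log2 change of 0.15 ± 0.11 (SE) in Hs578T (adjusted p = 0.27) and 0.24 ± 0.09 in MDA-MB-231 (adjusted p = 0.0399, both by edgeR's quasi-likelihood test). ZCCHC3, a nucleic acid sensor next to SOX12, changed by 0.20 ± 0.07 and 0.18 ± 0.07 on the log2 scale (adjusted p = 0.0319 and 0.0427 by the same test). These 3 calls were narrow and were lost with DESeq2, with limma on TPM and without several single libraries (without siGPX1 replicate 2 of Hs578T, ZCCHC3 changed by 0.10 there). Of 16 alternative settings, the ZCCHC3 call in Hs578T held in only 3, and each of the calls in MDA-MB-231 held in 9. Neighbours of the other SOX genes were not all so steady. CMPK2, next to SOX11, fell in Hs578T (log2 change -1.22 ± 0.34, adjusted p = 0.00712). SNRPE, next to SOX13, fell in MDA-MB-231 (-0.35 ± 0.07, adjusted p = 0.000991, both by edgeR's quasi-likelihood test). Neither was called in the other line. KCNJ2 and SLC39A11, next to SOX9, and ETNK2, next to SOX13, were called after depletion in neither line. No annotated RefSeq gene overlapped any of the 5 SOX genes. Over the 8 libraries, the levels most like that of SOX4 among 4667 genes compared were those of ALDH5A1, a mitochondrial dehydrogenase (Pearson r = 0.9985 on log2(CPM + 1)), and of the tubulins TUBB6 and TUBB2A (0.9982 and 0.9981). For SOX9 they were the small GTPase RAC1 (0.9992), the septin SEPT11 (0.9986) and FLII (0.9984), and for SOX12 RBMS3 (0.9978), SLC25A36 (0.9977) and DLGAP4 (0.9964). RGS10 (0.9971), EZR (0.9968) and PCGF6 (0.9964) were the most like SOX13. The libraries fall into a pair of lines, which sets most of each r, and these values are descriptions with no test. TUBB2A had 119, 141, 67.4 and 90 CPM in Hs578T control and siGPX1 and MDA-MB-231 control and siGPX1, a far narrower span than that of SOX4.

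Genes known as SOX4 or SOX11 targets changed in both directions. In all the lists that follow, the counts stand against 28.6% of all tested genes that rose and 22.1% that fell for Hs578T, and 20.7% and 21.9% for MDA-MB-231, and each list's median against 0.04 and 0.00. Of 15 targets tested, 7 rose and 4 fell in Hs578T (median log2 change 0.09), and 3 rose and 7 fell in MDA-MB-231 (median -0.28). The 4 falls in Hs578T and the 3 rises in MDA-MB-231 are near the share of all genes. With DESeq2's size factors, with the stricter filter or with MDA-MB-231 fitted alone, 5 rose there. TEAD2, a partner of the Hippo effector YAP, rose in Hs578T from 26.5 to 61.3 CPM (log2 change 1.21 ± 0.09, SE, adjusted p = 2.13e-08 by edgeR's quasi-likelihood test) and had a change of 0.28 ± 0.12 in MDA-MB-231 (adjusted p = 0.0737), where it did pass in the same 3 settings and without control replicate 1 (log2 change 0.59). TNC, the matrix protein tenascin C, rose in Hs578T from 40.8 to 90.2 CPM (1.14 ± 0.07, adjusted p = 3.26e-09) and fell in MDA-MB-231 from 241 to 176 CPM (-0.45 ± 0.05, adjusted p = 5.16e-06, same test). The Wnt receptor FZD8 fell in Hs578T from 55.5 to 20.5 CPM (-1.44 ± 0.08, adjusted p = 7.87e-10) and stood at 3.76 and 2.94 CPM in MDA-MB-231 (-0.35 ± 0.18, adjusted p = 0.163, same test, with -0.22 without control replicate 1 and -0.16 without siGPX1 replicate 2). FZD3, another Wnt receptor, fell in MDA-MB-231 from 11.5 to 3.75 CPM (-1.61 ± 0.18, adjusted p = 2.55e-06 by edgeR), and Hs578T held 1, 0, 0 and 1 counts of it.

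Cartilage genes driven by SOX9 were mostly silent, with 3 tested of the 16 listed in the libraries. In each line 2 of them fell and 0 rose, against 22.1 and 21.9% of all genes that fell, and the medians were -0.96 for Hs578T and -0.90 for MDA-MB-231. The falls numbered 1 with DESeq2 and with the stricter filter in both lines, and in Hs578T also without any single library of that line and with limma on TPM. COL9A2, a chain of cartilage collagen, held 17 and 17 counts in the Hs578T controls against 5 and 2 (log2 change -2.13 ± 0.48, SE, adjusted p = 0.00161, with -2.95 without siGPX1 replicate 1 and -1.61 without siGPX1 replicate 2). It fell in MDA-MB-231 too (-0.90 ± 0.16, adjusted p = 0.000243, edgeR), a call lost with limma on log2(TPM + 0.1). The other, COL11A2, passed narrowly in Hs578T (-0.96 ± 0.35, adjusted p = 0.0316 by edgeR), a call lost without any single Hs578T library (-1.17 to -0.78), with DESeq2 (-0.98) and with limma on TPM (-0.29 and -0.52), and held 9 and 9 counts in the MDA-MB-231 controls against 2 and 0. In MDA-MB-231 the log2 change of COL11A2 ranged from -5.99 to -2.0 where it was tested with a library left out. The count of 2 falls in that line held in 11 of 16 settings. The defining chondrocyte markers COL2A1, ACAN and MATN1 summed to at most 0.25 TPM in any library.

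Upstream of SOX4, the type I TGF-β receptor and the inhibitory SMAD7 rose in both lines, while the type II and accessory receptors rose in Hs578T and had small falls in MDA-MB-231 that hung on single libraries. TGFBR1, the type I receptor kinase, went from 16.7 to 49.4 CPM in Hs578T (log2 change 1.57 ± 0.07, SE, adjusted p = 9.72e-11) and from 92.7 to 225 CPM in MDA-MB-231 (1.28 ± 0.05, adjusted p = 6.52e-12, edgeR). SMAD7, which the pathway induces and which restrains it, went from 36.8 to 64.4 CPM and from 13.1 to 23.9 CPM (0.81 ± 0.06 and 0.87 ± 0.08, adjusted p = 1.93e-08 and 3.09e-07, same test). The part of the TGF-β genes in the rise of SOX4 was not tested. TGFBR2, the type II receptor kinase, had a log2 change of 0.28 ± 0.04 in Hs578T (adjusted p = 4.04e-05) and of -0.17 ± 0.04 in MDA-MB-231 (adjusted p = 0.00201, same test), the second lost when control replicate 1 (-0.10) or siGPX1 replicate 1 (-0.09) was left out. TGFBR3, the accessory receptor betaglycan, rose in Hs578T (0.39 ± 0.08, adjusted p = 0.000555) and fell in MDA-MB-231 (-0.24 ± 0.06, adjusted p = 0.00649), the second a call lost with DESeq2, with limma on TPM and without control replicate 2 (-0.15) or either siGPX1 replicate (-0.19 and -0.20). The ligand TGFB3 fell in MDA-MB-231 (-0.96 ± 0.27, adjusted p = 0.0103), which did not pass without control replicate 1 (-0.85) or without siGPX1 replicate 1 (-0.75). Of the 12 genes, 6 rose and 1 fell in Hs578T (median 0.11) and 5 rose and 5 fell in MDA-MB-231 (median 0.00), against 28.6 and 22.1% and 20.7 and 21.9% of all genes. In MDA-MB-231 the falls numbered 2 with DESeq2 and 1 without siGPX1 replicate 1. In Hs578T the falls numbered 0 without control replicate 1 or siGPX1 replicate 2, and 2 without any single MDA-MB-231 library.

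Of the Notch pathway, upstream of SOX9, 4 of 10 genes rose and 2 fell in Hs578T (median 0.12), and 5 rose and 1 fell in MDA-MB-231 (median 0.09). Of all genes 28.6% rose and 22.1% fell in the first line and 20.7 and 21.9% in the second, so the 2 falls in Hs578T are near the background. The receptor NOTCH1 fell in both lines, from 34.5 to 22.7 CPM (log2 change -0.61 ± 0.08, SE, adjusted p = 1.18e-05) and from 59.1 to 33.8 CPM (-0.81 ± 0.07, adjusted p = 1.05e-07, edgeR). NOTCH2 rose in both (0.30 ± 0.04 and 0.43 ± 0.04, adjusted p = 9.22e-06 and 2.09e-07), as did the coactivator MAML2 (0.33 ± 0.07 and 0.50 ± 0.07, adjusted p = 0.00129 and 4.14e-05, same test). The ligand JAG2 rose in MDA-MB-231 (0.44 ± 0.11, adjusted p = 0.0053), a call lost with DESeq2 and with limma on log2(TPM + 0.1), and held 1, 1, 0 and 0 counts in Hs578T.

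TCF and LEF factors, the Wnt pathway's own HMG box proteins, and their partners changed in both directions. Of 9 genes, 4 rose and 4 fell in Hs578T (median 0.06, against 28.6 and 22.1% of all genes), and 3 rose and 4 fell in MDA-MB-231 (median 0.19, against 20.7 and 21.9%). PYGO2, a coactivator of β-catenin, fell in both lines (log2 change -0.44 ± 0.08 and -0.55 ± 0.06, SE, adjusted p = 0.00017 and 3.91e-06 by edgeR). LEF1 stood near its control level in Hs578T (0.06 ± 0.12, adjusted p = 0.684) and fell in MDA-MB-231 (-0.91 ± 0.26, adjusted p = 0.0115), a call lost with DESeq2 and without control replicate 2 (-0.82) or siGPX1 replicate 1 (-0.77), when the falls of the list numbered 2. AXIN2, a feedback inhibitor of Wnt signalling, fell in Hs578T (-0.71 ± 0.19, adjusted p = 0.00618), a call lost with DESeq2 and without control replicate 1 (-0.60). TCF7L1 rose in Hs578T (0.57 ± 0.16, adjusted p = 0.00742), lost with DESeq2, with limma on log2(TPM + 0.1) and without siGPX1 replicate 1 (0.34). With DESeq2 and without that replicate the rises of the list numbered 2.

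Of 10 enzymes that modify SOX proteins, 6 rose and 2 fell in Hs578T (median 0.21, against 28.6 and 22.1% of all genes) and 4 rose and 3 fell in MDA-MB-231 (median 0.05, against 20.7 and 21.9%), so that the falls are near the background. The SUMO ligase PIAS1 fell in both lines (log2 change -0.54 ± 0.11 and -0.70 ± 0.10, SE, adjusted p = 0.000864 and 3.58e-05, edgeR). The acetyltransferase EP300 and the arginine methyltransferase CARM1, coactivators of SOX9, rose in both, EP300 by 0.40 ± 0.05 and 0.34 ± 0.05 (adjusted p = 7.87e-06 and 7.06e-05) and CARM1 by 0.47 ± 0.05 and 0.24 ± 0.05 (adjusted p = 1.49e-06 and 0.00193, same test). Of 8 POU and PAX factors that pair with SOX proteins on DNA, 4 were tested, of which 1 rose and 0 fell in Hs578T (median -0.08) and 1 rose and 1 fell in MDA-MB-231 (median -0.33). POU2F2, a B-cell factor, fell in MDA-MB-231 (-0.83 ± 0.07, adjusted p = 1.35e-07 by edgeR), and POU2F1 rose in both lines (0.30 ± 0.08 and 0.20 ± 0.07, adjusted p = 0.00409 and 0.026), calls lost with limma on TPM, in Hs578T without siGPX1 replicate 1 (0.21) and in MDA-MB-231 without control replicate 2 or siGPX1 replicate 1 (0.20 in both). In MDA-MB-231 the POU2F1 call held in 11 of 16 settings, and not all that lost it are named here. For these lists the counts and medians are descriptions with no test of the list, and the depletion comparisons use different control libraries in the 2 lines.

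**Figure D5:**
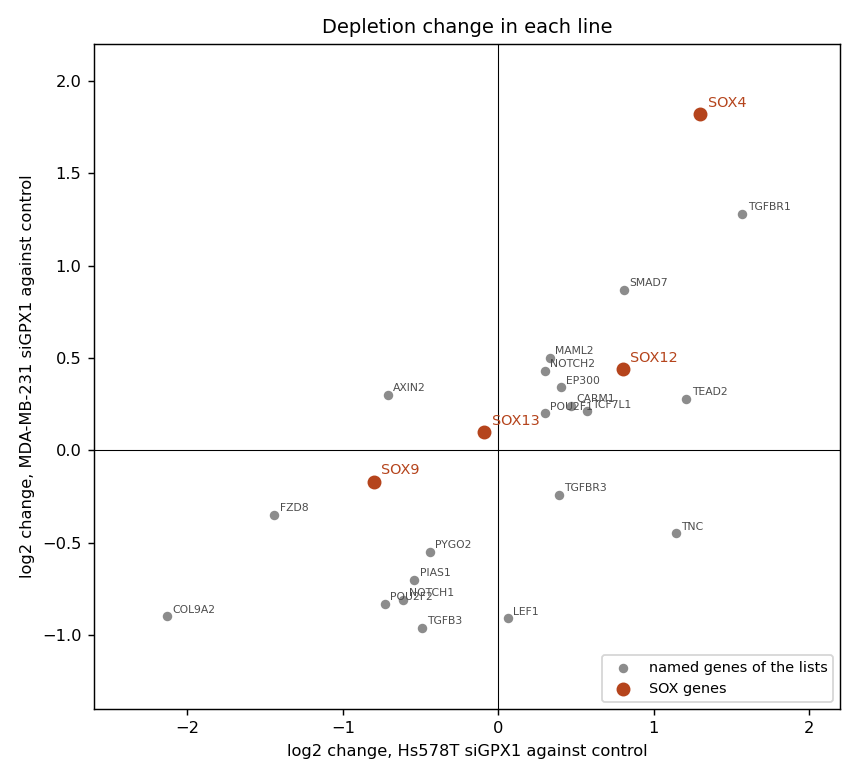
Log2 change after GPX1 depletion in Hs578T (horizontal axis) and MDA-MB-231 (vertical axis) for the 4 tested SOX genes (large points) and the genes named from the lists (small points). SOX18, FZD3, JAG2 and COL11A2, with 3 counts or fewer in a group, are left out. SOX4 lies at the upper right with TGFBR1 and SMAD7, and TNC lies at the lower right, higher in Hs578T and lower in MDA-MB-231. The set was chosen with the rise of SOX4 in MDA-MB-231 known, and the list genes were named for large changes. Nothing is read from the shared corner.

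The summed marker lists moved with depletion as well. Epithelial markers rose in sum from between 384 and 388 TPM to between 982 and 1080 TPM in Hs578T and from between 1742 and 1761 TPM to between 2747 and 2817 TPM in MDA-MB-231, mostly through KRT18 in Hs578T (322 to 949 TPM) and KRT8 and KRT18 in MDA-MB-231 (678 to 1146 and 596 to 938 TPM). Mesenchymal markers went from between 17038 and 17298 TPM to between 20386 and 22472 TPM in Hs578T, mostly through FN1 (10880 to 14121 TPM). In MDA-MB-231 they went from between 2441 and 2496 TPM to between 3124 and 3161 TPM, mostly through VIM (2167 to 2782 TPM). Of the transcription factors among them, ZEB1 fell in both lines (log2 change -0.25 ± 0.05 and -0.19 ± 0.05, SE, adjusted p = 0.00088 and 0.0106, edgeR). SNAI2 instead rose in Hs578T (0.25 ± 0.07, adjusted p = 0.00719) and was not called in MDA-MB-231 (0.15 ± 0.09, adjusted p = 0.177, same test). The ZEB1 call in MDA-MB-231 was lost with DESeq2, with limma on TPM and without any single library of that line (-0.17 to -0.10). Leukocyte markers went from at most 7.8 TPM to at most 9.41 TPM in Hs578T and from at most 6.92 TPM to at most 14.6 TPM in MDA-MB-231, nearly all of it CD14, with PTPRC at 0.15 TPM or less in every group mean. Neural markers reached at most 2.47 TPM and melanocyte and Schwann cell markers at most 1.26 TPM. The part of these shifts in the SOX changes was not tested.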

How the data were processed

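Total RNA was sequenced in 8 libraries of 4 groups, read from the sample titles. The cell line tag was used where the source label counts upward. The submitters' processing notes name FastQC, RSEM 1.2.12 and build hg19, and the aligner is not given in the sources used here. The authors deposited RSEM expected counts, in which a read that maps to more than 1 gene is divided among those genes. The deposited TPM values rest on these counts and correct them for effective length and library total. Of the detected expected counts 94.7 to 94.9% were whole (within 0.001), and all were rounded before testing.

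After filterByExpr (edgeR, 4 groups) and TMM scaling, 1 model of group means covered all 8 libraries, leaving 4 residual degrees of freedom and a biological coefficient of variation of 0.0342. Calls used edgeR's quasi-likelihood test at a Benjamini-Hochberg adjusted p under 0.05 over all 14249 tested genes. An SE is the size of the log2 change divided by the root of the F statistic. The SOX genes and the 9 gene lists were chosen with earlier results of these data known. The text names all 5 SOX genes, every other SOX gene with a group mean of at least 1 TPM, of each list up to 4 called genes with the largest change in either line, and the 3 genes most correlated with each tested SOX gene among those with a mean of at least 5 CPM and group means that span at least 1 on the log2(CPM + 1) scale, passing over symbols of uncharacterised loci. SOX5, SOX7, SOX2, SOX10, TGFBR2, the neighbouring genes, the markers, the promoter motifs and the 3′ UTR sequences were added outside that rule with values in view. SOX4 was the gene used to choose the set, so comparisons that hold its rise in MDA-MB-231 have no p for any of the 5. The comparison of the controls has no p for SOX4. RefSeq promoters and GENCODE 29 transcripts, which are on a later build than the files, were joined by symbol and used for sequence only. Promoters were found for 3 of the 5 genes. Of 6 noncoding neighbours of SOX genes that were looked for, 2 were in the files and 0 were tested. A list gene that the rule names is not reported here.

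Whether replicate numbers pair the samples was checked before the fits were compared. The procedure was tested on simulated data. Alternatives were DESeq2 and its size factors, no filter, a filter of 5 CPM in 2 libraries, only the groups of a comparison, a replicate block, limma on log2(TPM + 1) and log2(TPM + 0.1), and leaving out single libraries. Versions used were edgeR 4.0.16, DESeq2 1.42.0 and limma 3.58.1 under R 4.3.3, and pandas 2.3.3, numpy 2.4.6 and matplotlib 3.10.9 under Python 3.11.15.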

Additional observations from a re-analysis of the deposited data

Results flagged for a closer look

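Of 25 named genes of the lists, 8 had a depletion change that differed between the lines by the interaction term of edgeR's quasi-likelihood fit with Benjamini-Hochberg adjustment. The 25 were picked for a large change in either line, which favours a difference between the lines, so their number is not set against the share of all genes. None of the 5 SOX genes was put to this test. The difference is the log2 change in MDA-MB-231 minus that in Hs578T. It was -1.59 for TNC (adjusted p = 2.77e-08), from a rise in Hs578T and a fall in MDA-MB-231, and -0.63 for TGFBR3 (adjusted p = 0.000519), also with opposite directions. It was -0.92 for TEAD2 (adjusted p = 0.000707), which rose in Hs578T, and 1.09 for FZD8 (adjusted p = 0.00197), which fell there and whose small change in MDA-MB-231 varied with the library left out. LEF1, at -0.97 (adjusted p = 0.031), and AXIN2, at 1.0 (adjusted p = 0.0104), fell in 1 line each. TGFBR1, at -0.29 (adjusted p = 0.0379), and CARM1, at -0.23 (adjusted p = 0.0485), rose in both lines and more so in Hs578T. The difference between the lines was fitted in the main setting only, so none of these calls was checked under the alternative settings.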

How the results depend on the processing

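The 4 tested SOX genes gave 192 values (12 gene by comparison values under 16 settings). Of these, 180 stayed on the same side of the threshold or within 1 SD, 12 moved and 0 reversed. The calls of SOX4, SOX9, SOX12 and SOX13 in Hs578T held in all 16, as did those of SOX9, SOX12 and SOX13 between the controls. In MDA-MB-231 the log2 change of SOX4 was 1.88 with the stricter filter and 1.64 with limma on log2(TPM + 1), which understates low genes, and 1.83 to 1.89 with a library left out. That of SOX9 was -0.13 with DESeq2 and -0.13 with its size factors, -0.12 with the stricter filter and -0.17 to -0.10 with a library left out. The ranges with a library left out were 0.41 to 0.57 for SOX12 and 0.10 to 0.19 for SOX13. The causes were not tested. Where a library is left out, the lone sample of its group is assumed to vary like the other groups. The falls in MDA-MB-231 numbered 1837 with DESeq2 and 2033 to 2164 without a library of that line, against 3116. Limma on log2(TPM + 1) moved the median of all genes between the controls from 0.05 to 0.17. Replicate numbers did not pair the samples (correlations of deviations of -0.09 in Hs578T, 0.05 in MDA-MB-231 and 0.08 between controls), and the replicate block gave 7310 calls in Hs578T, 6142 in MDA-MB-231 and 11658 between the controls, against 7223, 6066 and 11629, with SOX4 at 1.30 and 1.82. With counts of 131 in the MDA-MB-231 controls SOX4 was well measured there, while depth limited SOX11, SOX18 in MDA-MB-231 and the cartilage genes.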
